A study of Homo sapiens with 12 samples.

Results

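Mitochondrial ribosomal proteins were read out as 78 protein-coding genes, taken by name as MRPL or MRPS followed by a number and at most 1 letter, out of 58735 genes in the tables. MRPL names (49) stand for the large subunit and MRPS names (29) for the small one, but MRPS30 and MRPS18A are built into the large subunit and MRPS36 is a component of the 2-oxoglutarate dehydrogenase complex, so the set holds 51 large-subunit proteins, 26 small-subunit proteins and 1 protein of another complex. By family, 48 have bacterial relatives and 29 are specific to mitochondria. The genes lie on 21 chromosomes, and all 78 passed the filter on low counts in every comparison. The cells were MDA-MB-231, a triple-negative human breast cancer line in wide use, and their total RNA was sequenced after they had received a guide RNA against UFM1 (sgUFM1), a guide against UFL1 (sgUFL1) or a control guide (sgCtrl), with controls labelled for each of the 2 guides. UFM1 is a small ubiquitin-like protein, and its ligase UFL1 couples it to targets that include ribosomes at the endoplasmic reticulum. There are 4 groups of 3 libraries, and all share the cell line. Knockdown is the word used in the series title and knockout the word in the design text, and the labels give no clone, time point or number of guides.

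The count table and the FPKM table (fragments per kilobase of transcript, scaled to library size) name 6 of the 12 libraries alike and exchange the names of the other 6. The libraries sgUFM1 and the controls for sgUFL1 (sgCtrl_to_sgUFL1) carry the same name in both. Set 2 denotes the 3 libraries labelled as controls for sgUFM1 in the count table and as sgUFL1 in the FPKM table. Set 1 denotes the 3 libraries labelled sgUFL1 in the count table and as controls for sgUFM1 in the FPKM table. No library was given a group from its values, and each comparison below is named under both tables.

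The targeted transcripts were read first as a check of the labels. UFM1 stood at 8.39, 8.97 and 8.92 FPKM in sgUFM1, 11.6, 12.4 and 12.5 in set 2, 11.2, 12.9 and 12.2 in set 1, and 13.4, 14.9 and 16.1 in the controls for sgUFL1. Each sgUFM1 library thus lay below the other 9. UFL1 stood at 4.47, 5.47 and 5.18 FPKM in sgUFM1, 2.78, 2.5 and 2.87 in set 2, 3.66, 4.21 and 3.94 in set 1, and 4.3, 5.37 and 6.61 in the controls for sgUFL1. UFL1 was thus lowest in set 2, which the FPKM table labels sgUFL1 and the count table labels as controls. A transcript level does not measure the protein that a guide disrupts.

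Library totals ran from 15342793 to 18033331 counts. Weighted by count, transcripts had a mean GC content between 49.81% and 50.29% in sgUFM1, between 50.41% and 50.94% in set 2, between 50.29% and 50.53% in set 1, and between 48.33% and 49.38% in the controls for sgUFL1. Markers of the basal-like line (VIM, CD44, AXL, CAV1, MSN, ITGB1 and LGALS1) summed to 920 to 1138 FPKM over the 12 libraries. Of 8 leukocyte markers 7, and of 8 fibroblast and endothelial markers 7, averaged under 1 FPKM. The sum of 8 luminal markers, 2 of them (ESR1 and PGR) under 1 FPKM, lay between 97.3 and 99.3 FPKM in sgUFM1 and between 104 and 123 in set 2. It lay between 83.8 and 91.1 in set 1 and between 73.6 and 79.5 in the controls for sgUFL1. Most of it was KRT19, with means of 59.6, 86.2, 59.8 and 50.2 FPKM in the same order. XBP1 (26, 18.1, 18.1 and 19) and TFF1 (4.32, 1.32, 1.22 and 0.771) were highest in sgUFM1 instead, so these markers did not differ in 1 direction. The part of the luminal markers in the results was not tested. Whether replicates are separate cultures is not stated, so p-values reflect only how much these libraries scatter, and that scatter may be technical. In bulk RNA, a change in the number of cells of a type and a change in RNA per cell cannot be told apart.

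Mitochondrial ribosomes translate the 13 proteins encoded by mitochondrial DNA, all of them subunits of oxidative phosphorylation complexes. Their RNA parts come from mitochondrial DNA, but every protein part is encoded in the nucleus, made on cytosolic ribosomes and imported. Transcription of many such nuclear genes is known to depend on NRF1, on ETS-family factors such as GABPA, and on YY1, and tumour cells are known to keep mitochondrial translation running to supply respiration.

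The promoters of 4 members that the results turn on are shown from 250 bases before the annotated start to 50 after it (RefSeq, GRCh38.p14, 5′ to 3′ on the gene's own strand). They are MRPL12, the member with the greatest differences, MRPL36 and MRPS34, which were lower in sgUFM1 than in set 2, and MRPL50, which was higher in sgUFM1 than in set 1. Capitals mark matches to a motif of NRF1 (the core of its known palindromic site), ETS factors (CCGGAAG) or YY1 (AANATGGC), searched on both strands, and none of the matches shown share bases. The windows lie at chr17:81703117-81703416 (plus strand) for MRPL12, chr5:1799788-1800087 (minus strand) for MRPL36, chr16:1773085-1773384 (minus strand) for MRPS34 and chr9:101398569-101398868 (minus strand) for MRPL50.
MRPL12: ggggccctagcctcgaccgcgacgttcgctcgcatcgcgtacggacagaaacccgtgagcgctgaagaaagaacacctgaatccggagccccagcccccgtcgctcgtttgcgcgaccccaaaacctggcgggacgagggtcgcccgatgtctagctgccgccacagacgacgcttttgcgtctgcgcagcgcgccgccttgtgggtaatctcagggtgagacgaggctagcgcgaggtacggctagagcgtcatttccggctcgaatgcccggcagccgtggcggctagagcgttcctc
MRPL36: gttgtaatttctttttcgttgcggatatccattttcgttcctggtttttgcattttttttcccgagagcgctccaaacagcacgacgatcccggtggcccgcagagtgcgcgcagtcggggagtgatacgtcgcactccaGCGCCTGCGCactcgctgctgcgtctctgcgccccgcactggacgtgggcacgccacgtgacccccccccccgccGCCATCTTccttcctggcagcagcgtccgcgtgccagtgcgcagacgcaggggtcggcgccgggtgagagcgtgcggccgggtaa
MRPS34: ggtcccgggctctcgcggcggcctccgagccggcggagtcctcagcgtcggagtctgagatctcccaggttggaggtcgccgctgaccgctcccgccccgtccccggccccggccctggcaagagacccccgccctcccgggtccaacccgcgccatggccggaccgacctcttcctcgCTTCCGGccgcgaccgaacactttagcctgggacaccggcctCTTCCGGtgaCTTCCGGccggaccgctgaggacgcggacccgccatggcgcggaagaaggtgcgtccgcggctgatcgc
MRPL50: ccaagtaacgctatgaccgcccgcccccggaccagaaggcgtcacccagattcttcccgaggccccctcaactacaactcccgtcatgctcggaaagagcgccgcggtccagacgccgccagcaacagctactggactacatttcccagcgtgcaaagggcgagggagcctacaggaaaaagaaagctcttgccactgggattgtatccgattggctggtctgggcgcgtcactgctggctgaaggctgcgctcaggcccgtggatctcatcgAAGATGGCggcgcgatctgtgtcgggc

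The MRPL36 window holds an NRF1 match whose first base lies at -110 from the start and a YY1 match at -35. MRPS34 holds 3 ETS matches at -71, -29 and -19, and MRPL50 a YY1 match at 24 inside the transcribed part. The MRPL12 window holds none of these letters, which says only that they are not in this window. Windows were found for 69 of the 78 members. The ETS motif was in 43.5% of them and in 16.7% of the 14896 protein-coding genes with a window. The YY1 motif was in 37.7% and 9.85% in the same order, and the NRF1 motif in 13% and 9.75%. Median GC content of the windows was 60% for members and 62.7% for all of these genes. Among members lower in sgUFM1 than in set 2, described below, 36 had a window, with the ETS motif in 36.1% and YY1 in 33.3%, against 51.5% and 42.4% of the 33 other members. A match is a description of the letters, not a bound site.

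On the FPKM scale, which is per length, the members' mean over 12 libraries had a median of 22.5 and ran from 0.683 to 125. The highest were MRPS34, a mitochondria-specific small-subunit protein (125 FPKM), MRPS26, another of that kind (108), MRPL14, a protein of the face where the subunits meet (91.6), and MRPS10, a small-subunit protein of bacterial family (82.4). The lowest were MRPS17 (2.38), MRPL46 (1.12), MRPL38 (0.775) and MRPS24 (0.683). Proteins of the large subunit had a median of 25.9 FPKM (51 genes) and those of the small subunit 13 (26 genes). Members of bacterial family and mitochondria-specific ones had medians of 24.5 and 21.9. Of the 7 members at or under 5 FPKM, 6 shared at least 10% of their exon bases with another gene on the same strand, against 4 of the 71 above it. How reads in shared bases were assigned is not given in the sources used here, so the levels of such members are uncertain.

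The 78 members took 0.4626%, 0.4443% and 0.4564% of all counts in the sgUFM1 libraries. Their share was 0.5013%, 0.5458% and 0.5362% in set 2, 0.4753%, 0.5108% and 0.5089% in set 1, and 0.4641%, 0.473% and 0.4476% in the controls for sgUFL1. The sgUFM1 shares lay below all 6 shares of set 2 and set 1 and overlapped with those of the controls for sgUFL1. In the heat map of members by library, set 2 had the highest mean for 42 of 78 members (28.5% of all 15821 genes tested in the model over 12 libraries). The lowest mean was that of the controls for sgUFL1 for 33 members and that of sgUFM1 for 29 (33.4% and 20.2% of all genes). The highest mean was that of the controls for sgUFL1 for 21 members, of set 1 for 10 and of sgUFM1 for 5 (34.8%, 16.1% and 20.6% of all genes), and the lowest that of set 2 for 10 and of set 1 for 6 (31.7% and 14.8%).

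Some members had all 3 libraries of a set outside the range of the other 9. MRPL33 and MRPL50 lay above in sgUFM1 (2.56% of members, 3.89% of all genes) and MRPL32, MRPS17, MRPS5 and MRPS6 below (5.13% of members, 2.97% of all genes). In set 2, MRPL12, MRPL22, MRPL36, MRPL41, MRPL43, MRPL46 and MRPS16 lay above (8.97% of members, 5.61% of all genes) and MRPL19 below (1.28% and 6.2%). In set 1, 0 members lay above and MRPL50 below (0.847% and 0.752% of all genes). In the controls for sgUFL1, MRPL19, MRPL30, MRPL35, MRPL42 and MRPS9 lay above and 8 members, MRPL12 and MRPS26 among them, below (6.67% and 6.83% of all genes).

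**Figure D1:**
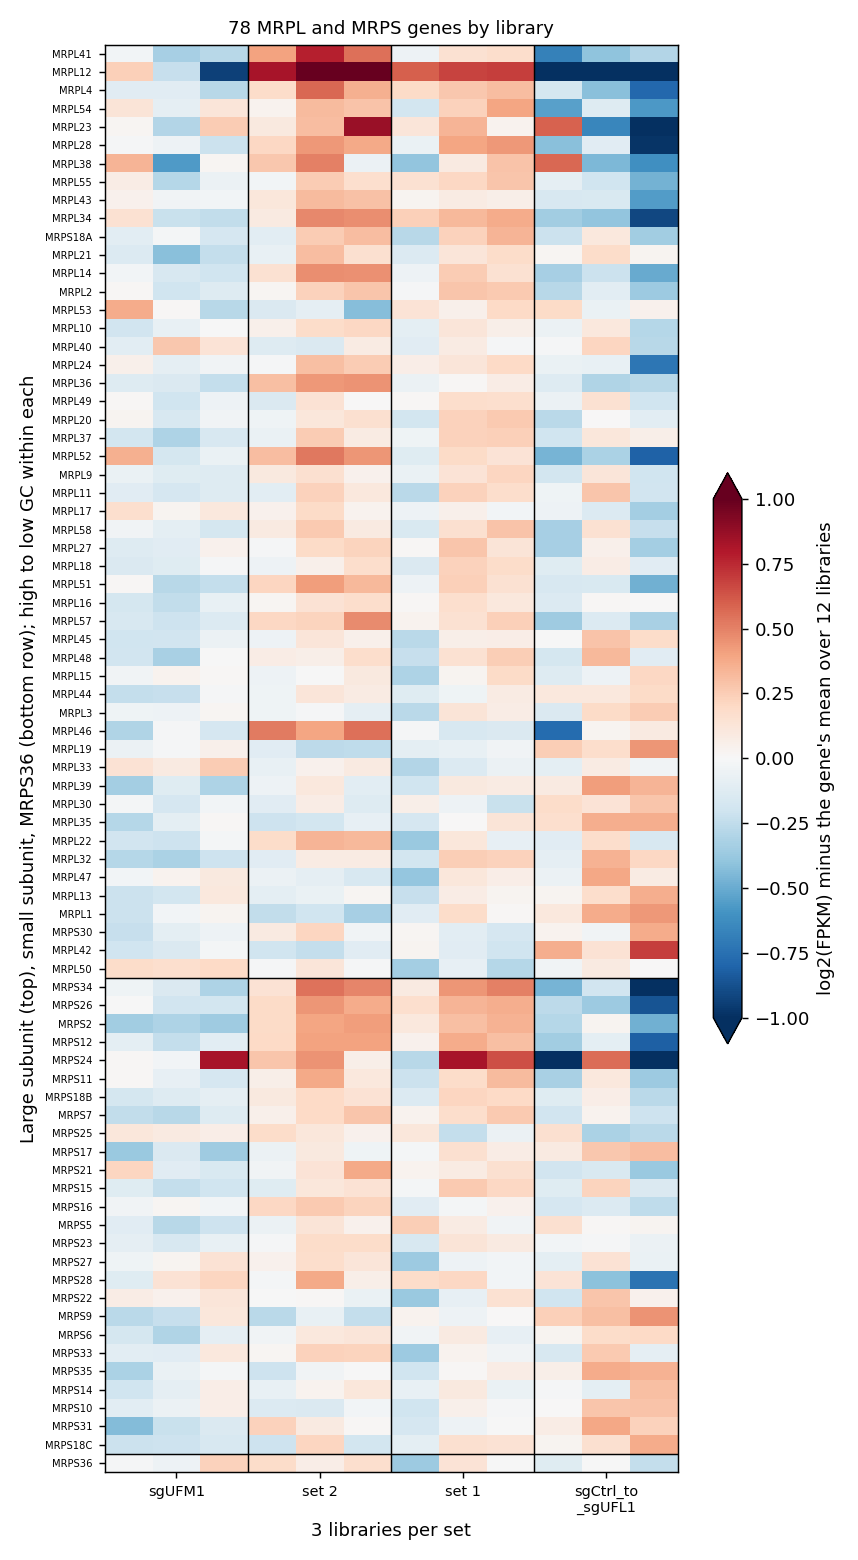
Heat map of log2(FPKM) minus each gene's mean over 12 libraries, with 78 members as rows (large subunit, small subunit and MRPS36, each from high to low GC content) and 3 libraries of each set as columns. Red marks libraries above the gene's mean and blue those below, and colours are capped at 1 and -1. Most high-GC rows are red in set 2 and blue in replicate 3 of the controls for sgUFL1, and MRPL12 reaches both caps.

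Levels were lower in sgUFM1 than in set 2 for 40 of the 78 members, which is 51.3% of them. Of the 15083 genes tested, 18.5% were lower. MRPL19 alone was higher, while 19.3% of all genes were higher. Under the count table this sets sgUFM1 against its own controls, and under the FPKM table against sgUFL1. The differences were small: the median over the 78 log2 fold changes was -0.22, against 0.01 over all genes. By at least 1.5-fold, 4 members (MRPL12, MRPL41, MRPL46 and MRPS2) were lower. Of the 40, 18 were also called higher in set 2 than in the controls for sgUFL1, a comparison that shares the set 2 libraries. The share of all genes with both calls is not given. Of the large-subunit members 27 of 51 were lower and of the small-subunit members 13 of 26, with a median of -0.22 in each. Counts were tested in edgeR with the quasi-likelihood test, and lower or higher means a Benjamini-Hochberg adjusted p under 0.05 over all genes tested.

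Among large-subunit members, MRPL12 forms the stalk that recruits translation factors to the ribosome. It stood at 29.1, 21 and 12.9 FPKM in sgUFM1, against 43.6, 60.4 and 52.2 in set 2. Its log2 fold change was -1.30 (SE 0.17, adjusted p = 7.9e-06 in edgeR), and the highest sgUFM1 library lay below the lowest of set 2. MRPL41, a mitochondria-specific protein, had 45.7, 37.1 and 38.6 FPKM in sgUFM1 and 61.6, 80 and 68.3 in set 2, with no overlap and a log2 fold change of -0.78 (SE 0.10, adjusted p = 3.1e-06 in edgeR). MRPL36, a very small protein of bacterial family, had 30.3, 30 and 28 FPKM in sgUFM1 and 40.8, 44.7 and 45.3 in set 2, and its log2 fold change was -0.56 (SE 0.08, adjusted p = 1.8e-05 in edgeR). The sgUFM1 libraries lay within a narrow range below all those of set 2. MRPL46, a low-level mitochondria-specific protein, had 0.885, 1.08 and 0.97 FPKM in sgUFM1 and 1.56, 1.43 and 1.6 in set 2 (log2 fold change -0.64, SE 0.15). MRPL58, a peptidyl-tRNA hydrolase built into the large subunit, had a log2 fold change of -0.25, and MRPS30, a large-subunit protein despite its name, of -0.21. MRPL19, a large-subunit protein of bacterial family, had 15.3, 15.8 and 16.5 FPKM in sgUFM1 and 14.8, 13.3 and 13.4 in set 2, and its log2 fold change was 0.20 (SE 0.08, adjusted p = 0.047 in edgeR).

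Among small-subunit members, MRPS2, of bacterial family, had 24, 24.6 and 23.8 FPKM in sgUFM1 and 34.8, 40.1 and 40.8 in set 2. Its log2 fold change was -0.67 (SE 0.08, adjusted p = 1.6e-06 in edgeR). MRPS12, whose bacterial relative lies at the decoding centre, had 37.7, 34.2 and 37.5 FPKM in sgUFM1 and 46.4, 53.3 and 53.5 in set 2 (log2 fold change -0.48, SE 0.08). MRPS34, the most highly expressed member, had 116, 108 and 96.6 FPKM in sgUFM1 and 132, 174 and 168 in set 2 (log2 fold change -0.56, SE 0.09). None of these 3 overlapped between the groups. MRPS18B, one of the 3 mitochondrial relatives of bacterial S18, was lower by a log2 fold change of -0.28. MRPS18A and MRPS18C, its paralogs in other positions, had -0.25 (adjusted p = 0.071) and -0.15 (adjusted p = 0.39). MRPS36, the member outside the ribosome, had -0.07 (SE 0.09, adjusted p = 0.58 in edgeR), and was called lower only with the offsets described next. In all, 38 of 78 members did not overlap between the groups with sgUFM1 lower (22.1% of 15821 genes) and 5 with sgUFM1 higher (23.1%).

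With offsets fitted to GC content and length, 35 members were lower and 2 higher (16.7% and 16.1% of all genes), 27 of the 40 remained lower, and MRPL41 and MRPS26 were not called (log2 fold changes -0.15 and -0.06, adjusted p = 0.085 and 0.41). MRPL19 was not called with offsets (0.04, adjusted p = 0.61), and the 2 higher members were then MRPL40 (0.34) and MRPL54 (0.24). Leaving out sgUFM1 replicate 2, set 2 replicate 2 or set 2 replicate 3 gave 22, 25 and 25 lower members, and 1 model over 12 libraries gave 19. For fits with a library left out, here and below, the share of all genes called is not given. Such counts show only how calls among members depend on single libraries.

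**Figure D2:**
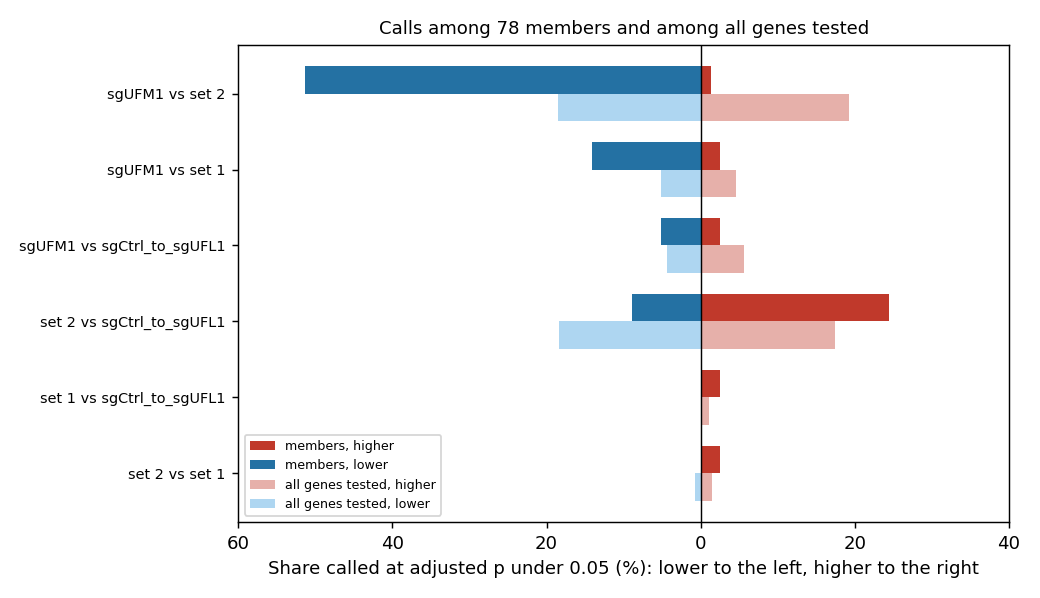
Shares of members and of all genes tested that were called at adjusted p under 0.05 in the 6 pairwise comparisons, with lower calls to the left and higher calls to the right of 0 (percent). In sgUFM1 against set 2, 51.3% of members and 18.5% of all genes were lower.

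Relative to set 1, 11 members were lower in sgUFM1 and 2 higher (5.15% and 4.57% of the 14977 genes tested), with a median log2 fold change of -0.16 over the 78, against -0.01 over all genes. Under the count table this sets sgUFM1 against sgUFL1, and under the FPKM table against its own controls. The 11 were 5 large-subunit members (MRPL12, MRPL34, MRPL37, MRPL4 and MRPL57) and 6 small-subunit members (MRPS12, MRPS15, MRPS2, MRPS26, MRPS34 and MRPS7). The comparisons with set 1 and set 2 share the sgUFM1 libraries. MRPS2 had 32.8, 37.6 and 38.9 FPKM in set 1, all above the sgUFM1 libraries, and a log2 fold change of -0.59 (SE 0.08, adjusted p = 0.0033 in edgeR). MRPL4, a protein of the wall of the exit tunnel, had 17.7, 17.7 and 15.8 FPKM in sgUFM1 and 21.8, 23 and 23.7 in set 1, with a log2 fold change of -0.42 (SE 0.08, adjusted p = 0.01). MRPS7, a protein of the small-subunit head, had 22, 21.5 and 23.8 FPKM in sgUFM1 and 26.7, 29.4 and 31.2 in set 1, with a log2 fold change of -0.38 (SE 0.08, adjusted p = 0.018). Neither gene overlapped between the groups. MRPL12, at 37.3, 39.3 and 39.7 FPKM in set 1, had a log2 fold change of -0.88 (SE 0.21, adjusted p = 0.028 in edgeR), a call that ended without sgUFM1 replicate 2 or 3 or set 1 replicate 3. MRPS26 and MRPS34 had log2 fold changes of -0.41 (SE 0.08) and -0.52 (SE 0.11).

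The 2 higher members were MRPL33 and MRPL50, both of the large subunit. MRPL50, a mitochondria-specific protein, had 9.87, 9.76 and 10 FPKM in sgUFM1 and 6.86, 8.22 and 7.12 in set 1 (log2 fold change 0.42, SE 0.10, adjusted p = 0.027 in edgeR). MRPL33, of bacterial family, had 58.9, 56.8 and 63.4 FPKM in sgUFM1 and 43.5, 48.4 and 51.2 in set 1 (log2 fold change 0.32, SE 0.08, adjusted p = 0.035 in edgeR). MRPL33 shares 21.1% of its exon bases with BABAM2. By order of libraries, 21 members lay lower in sgUFM1 without overlap and 2 higher (15.1% of all genes in each direction). Without sgUFM1 replicate 1, 2 or 3 there were 6, 1 or 1 lower members, and without set 1 replicate 1, 2 or 3 there were 37, 5 or 2. With offsets 8 were lower and 1 higher (3.54% and 4.34% of all genes), MRPL37, MRPL57, MRPS15, MRPS2 and MRPS7 remained lower, MRPL33 remained higher, and MRPL12 and MRPL50 had -0.63 (adjusted p = 0.068) and 0.32 (adjusted p = 0.078). Without any of the sgUFM1 libraries, or without set 1 replicate 3, there were 0 higher members, and without set 1 replicate 2 there was 1.

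Relative to the controls for sgUFL1, the comparison that both tables name alike, 4 members were lower in sgUFM1 and 2 higher (4.43% and 5.57% of the 15035 genes tested), with a median log2 fold change of -0.01. The labels give these controls to sgUFL1, and an effect of the sgUFM1 guide cannot be told apart from any other difference between the 2 groups of libraries. MRPL39, a mitochondria-specific large-subunit protein, had 23.9, 27.8 and 24.5 FPKM in sgUFM1 and 32.2, 40.5 and 38.3 in the controls for sgUFL1. Its log2 fold change was -0.55 (SE 0.13, adjusted p = 0.02 in edgeR), with no overlap. MRPL42, MRPL35 and MRPS31 had log2 fold changes of -0.54 (SE 0.13), -0.43 (SE 0.11) and -0.50 (SE 0.14). MRPL12 had 12.2, 11.1 and 5.86 FPKM in the controls for sgUFL1, and a log2 fold change of 1.10 (SE 0.29, adjusted p = 0.034 in edgeR). The lowest sgUFM1 library (12.9 FPKM) lay just above the highest of these controls. MRPL52, a mitochondria-specific large-subunit protein, had 32, 22.2 and 23.9 FPKM in sgUFM1 and 18.2, 20.1 and 14.3 in the controls for sgUFL1 (log2 fold change 0.56, SE 0.16, adjusted p = 0.04 in edgeR).

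Without overlap, 19 members lay lower and 12 higher (15.8% and 16.8% of all genes). MRPL39 and MRPS31 were lower in sgUFM1 than in set 2 too, by -0.24 (SE 0.09) and -0.37 (SE 0.11), and without offsets 0 members were lower than in all of the other 3 sets. With offsets MRPS2 was, by -0.37 (adjusted p = 2.9e-05 in edgeR) against set 2, -0.40 (adjusted p = 0.01) against set 1 and -0.40 (adjusted p = 0.017) against the controls for sgUFL1. These comparisons share the sgUFM1 libraries. Against the controls for sgUFL1, MRPS2 (GC content 61.2%) was not called without offsets. Its FPKM overlapped there, at 24, 24.6 and 23.8 in sgUFM1 and 25.1, 31.1 and 21.9 in these controls. In the comparison with the controls for sgUFL1, leaving out any of the sgUFM1 libraries left 0 lower and at most 1 higher member, without controls replicate 1 or 3 there were 2 lower and 0 higher, and without replicate 2 there were 8 lower and 8 higher. With offsets 4 were lower and 3 higher (3.95% and 4.3% of all genes), MRPL39, MRPL42 and MRPL52 kept their direction and call, while MRPL12 had 0.70 (adjusted p = 0.085), MRPL35 -0.24 (adjusted p = 0.087) and MRPS31 -0.30 (adjusted p = 0.15).

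**Figure D3:**
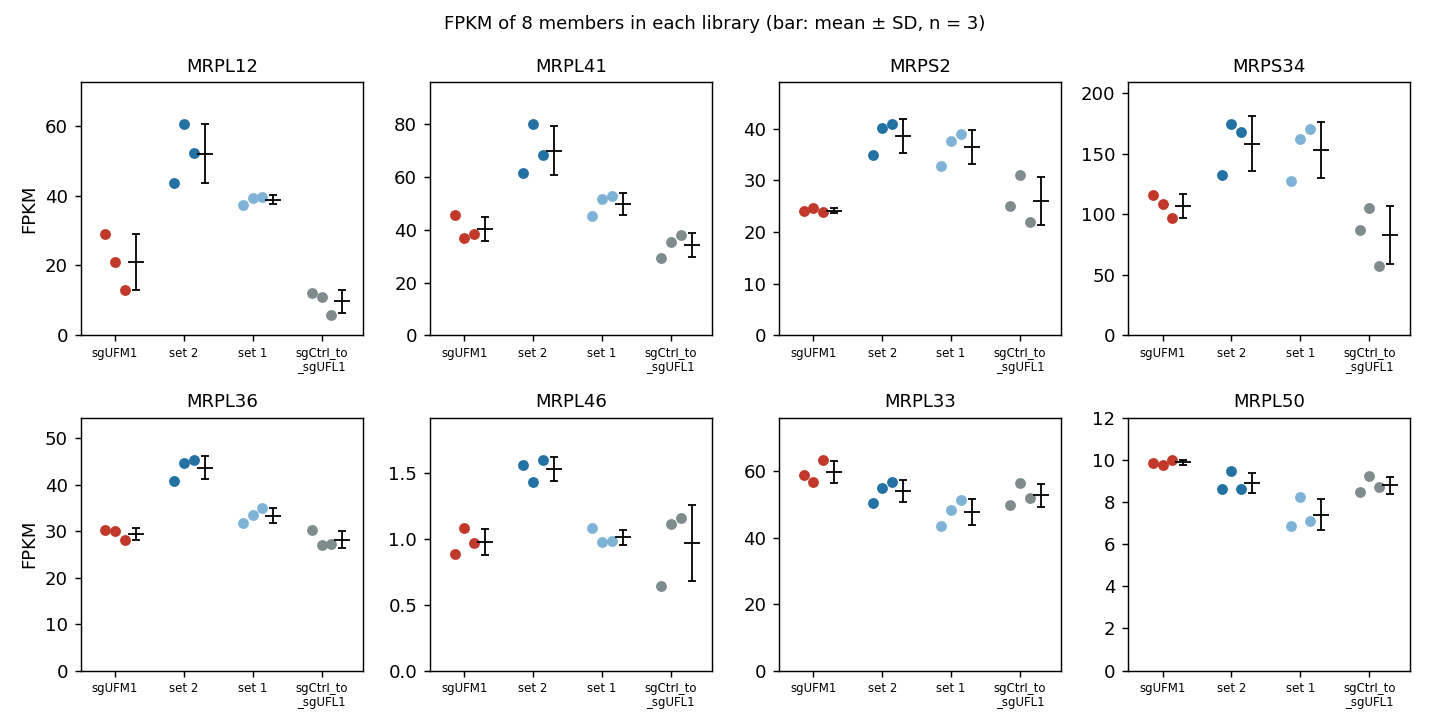
FPKM of 8 members in each of 12 libraries (points), with the mean ± SD of each set (bars, n = 3 each) on axes that start at 0. MRPL12, MRPL41, MRPS2, MRPS34, MRPL36 and MRPL46 are lower in sgUFM1 than in set 2, and MRPL33 and MRPL50 are highest in sgUFM1.

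Set 2 against the controls for sgUFL1 (sgUFL1 against its own controls by the names of the FPKM table, and 1 control group against the other by those of the count table) gave 19 higher and 7 lower members (17.4% and 18.4% of the 15175 genes tested). That is 24.4% of members higher and 8.97% lower, with a median log2 fold change of 0.15, against -0.03 over all genes. MRPL12 had 43.6, 60.4 and 52.2 FPKM in set 2, and its log2 fold change of 2.40 (SE 0.22, adjusted p = 8.2e-05 in edgeR) was the greatest of any member in a pairwise comparison. MRPL41 averaged 70 ± 9.32 FPKM in set 2 and 34.2 ± 4.59 in the controls for sgUFL1 (SD, n = 3 each), with a log2 fold change of 1.01 (SE 0.13, adjusted p = 0.00065 in edgeR). MRPL52, MRPL34, MRPS34, MRPS26 and MRPL14 were higher by 0.93, 0.87, 0.91, 0.80 and 0.69 log2 units. The 7 lower members were MRPL1, whose bacterial relative forms the mobile stalk at the exit site for tRNA, MRPL19, MRPL35, MRPL42, MRPS10, MRPS35 and MRPS9. MRPL1 averaged 14.1 ± 0.644 FPKM in set 2 and 20.8 ± 2.46 in the controls for sgUFL1 (log2 fold change -0.58, SE 0.13), and MRPL42 averaged 5.84 ± 0.259 and 8.85 ± 1.69 in the same order (log2 fold change -0.62, SE 0.14; SD, n = 3 each).

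With offsets for GC content and length, 11 members were higher and 1 lower (3.95% and 3.09% of all genes). MRPL12, MRPL46, MRPL51, MRPL52, MRPL57 and MRPS16 were higher both with and without them, MRPS9 was lower in both, MRPL12 had 1.59 (adjusted p = 0.00044), and MRPL41 turned to -0.21 (adjusted p = 0.5). MRPL54 and MRPS2, higher without offsets, turned to -0.15 and -0.04, and MRPL42, lower without them, to 0.02, none of them called. Without overlap, 29 members lay higher in set 2 and 11 lower (24.5% and 23.9% of all genes). Without replicate 2 of the controls for sgUFL1 there were 31 higher members, and without set 2 replicate 3 there were 4 lower.

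Set 1 against the controls for sgUFL1 (sgUFL1 against its own controls by the names of the count table, and 1 control group against the other by those of the FPKM table) gave 2 higher and 0 lower members, MRPL12 and MRPL34 (1.08% and 0.02% of the 14996 genes tested). MRPL12 had a log2 fold change of 2.00 (SE 0.23, adjusted p = 0.045 in edgeR), and its 3 set 1 libraries, from 37.3 to 39.7 FPKM, lay far above these controls. MRPL34, a large-subunit protein of bacterial family, had 50.1, 53.4 and 55 FPKM in set 1 and 33.4, 32.3 and 22.6 in the controls for sgUFL1, without overlap, and a log2 fold change of 0.85 (SE 0.15, adjusted p = 0.049 in edgeR). Both calls stood near the threshold: with offsets the changes were 1.34 and 0.44 (adjusted p = 0.13 and 0.37), and 0 members were called (0% of all genes). Without overlap, 21 members lay higher and 8 lower (16.2% and 16.1% of all genes). Leaving out set 1 replicate 1 gave 8 higher members, and leaving out replicate 2 of the controls gave 16 higher and 2 lower. Leaving out replicate 1 or 3 of the controls gave 0 and 1, and leaving out set 1 replicate 2 or 3 gave 0.

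Set 2 against set 1 (sgUFL1 against the controls for sgUFM1 by the names of the FPKM table, and the reverse by those of the count table) gave 2 higher and 0 lower members, MRPL36 and MRPL41 (1.49% and 0.705% of the 15033 genes tested). MRPL36 had 31.7, 33.4 and 34.9 FPKM in set 1 and a log2 fold change of 0.40 (SE 0.08, adjusted p = 0.041 in edgeR). MRPL41 had 45.1, 51.8 and 52.8 FPKM in set 1 and a log2 fold change of 0.50 (SE 0.10, adjusted p = 0.041 in edgeR). In both genes every set 2 library lay above every set 1 library. MRPL12 had a log2 fold change of 0.43 (SE 0.12, adjusted p = 0.078 in edgeR) and was not called, with set 2 at 43.6 FPKM or more and set 1 at 39.7 or less. Leaving out set 1 replicate 1 gave 8 higher members and 1 lower. Leaving out set 2 replicate 2 or 3, or set 1 replicate 2 or 3, gave 0, and with offsets 1 member was higher and 0 lower (1.66% and 1.05% of all genes), MRPL46 (log2 fold change 0.66, adjusted p = 0.039). Without overlap, 11 members lay higher in set 2 and 4 lower (11.7% and 12.3% of all genes).

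A test of any difference among the 4 sets does not depend on the exchanged names. It called 34 of 78 members (41.5% of the 15821 genes tested), and 25 with offsets (20.3%). MRPL12 had the smallest p of the members (adjusted p = 0.00012 in edgeR). Another 25 members were called in no comparison or test, among them MRPS18A, MRPS18C and MRPS36, when no offsets were used. The difference between the 2 guide effects, each guide relative to its own controls, also comes out the same under both namings, since it sums sgUFM1 and the controls for sgUFL1 and subtracts set 1 and set 2. It was below 0 for 26 members and above 0 for 4 (17.9% and 17% of all genes), with a median of -0.35, against 0.02 over all genes. For MRPL12 it was -3.30 log2 units (SE 0.36, adjusted p = 6.3e-05 in edgeR), and -2.24 with offsets (adjusted p = 0.00036). MRPS34, MRPL41 and MRPL34 followed at -1.44 (SE 0.25), -1.34 (SE 0.18) and -1.30 (SE 0.21), and with offsets they had -0.43, 0.29 and -0.63. With offsets 20 members were below 0 and 1 above (4.51% and 3.41% of all genes), with a median of -0.23. Members above 0 numbered 2 without sgUFM1 replicate 2 or 3, set 2 replicate 1 or 3, set 1 replicate 1 or controls replicate 2, and 7 without controls replicate 1.

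Fold changes of the members varied with GC content, least so in set 2 against set 1. The median GC content over their annotated transcripts, weighted by transcript length, was 49.2%, ranging from MRPL50 at 35% to MRPL41 at 71.9%. Over the 78 members, which share libraries and are not independent, Spearman's rho between log2 fold change and GC content was -0.54 in sgUFM1 against set 2 and -0.53 against set 1. It was 0.65 in sgUFM1 against the controls for sgUFL1, 0.74 in set 2 against those controls, 0.84 in set 1 against them and 0.21 in set 2 against set 1. Over all genes tested the same values were -0.47, -0.32, 0.53, 0.75, 0.76 and 0.31. With offsets they were 0.27, 0.03, 0.02, -0.25, -0.04 and -0.35 for the members, and 0.03, 0.03, 0.02, -0.01, -0.01 and -0.01 over all genes. In the comparisons with set 2 the members thus kept a trend of opposite sign that all genes did not show. In sgUFM1 against set 2, 26 of the 39 members above the median GC content were lower, against 14 of the 39 others, and with offsets 13 and 22 were. The part of GC content in any single member's change was not tested.

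**Figure D4:**
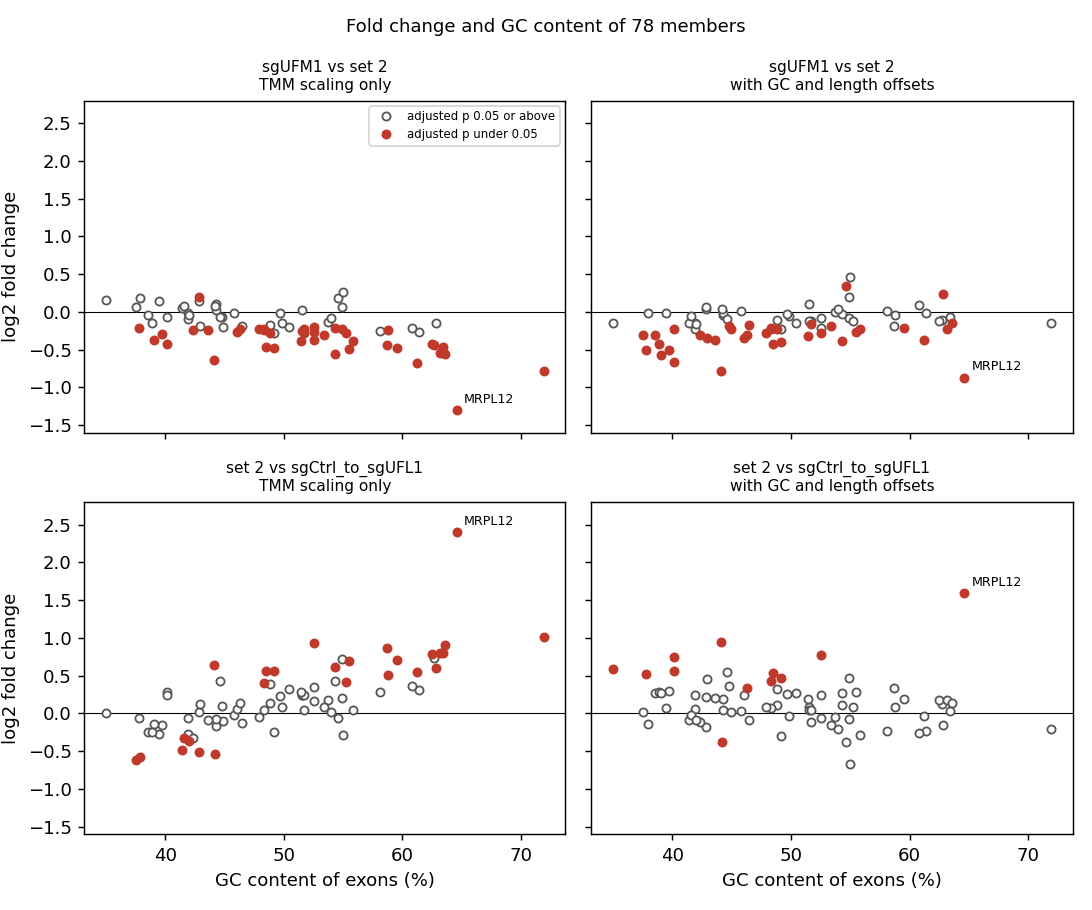
Log2 fold change of 78 members against the GC content of their annotated transcripts (percent, labelled as exons on the axis), for sgUFM1 against set 2 (top) and set 2 against the controls for sgUFL1 (bottom), with TMM scaling only (left) and with offsets for GC content and length (right). Filled points had an adjusted p under 0.05. The slope seen on the left is nearly flat or turned on the right. MRPL12 had -1.30 and 2.40 on the left and -0.87 and 1.59 on the right.

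MRPL12 (ENSG00000262814) lies at chr17:81703357-81707526 on the plus strand (GRCh38), with 1028 exon bases. The GC content of its annotated transcripts was 64.6%. Of its exon bases 68.2% are also exons of AC139530.2, a gene on the same strand that spans chr17:81703371-81720539 and had 0 counts in all 12 libraries. How reads in the shared bases were assigned is not given in the sources used here, so the level of MRPL12 and its changes may rest on part of the transcript. SLC25A10, the mitochondrial dicarboxylate carrier, lies next to it at chr17:81712236-81721016. It had 4.67, 4.19 and 3.97 FPKM in sgUFM1, 5.33, 6.12 and 6.06 in set 2, 5.31, 5.7 and 5.36 in set 1, and 2.3, 3.68 and 1.17 in the controls for sgUFL1. Its log2 fold change was -0.44 (SE 0.12, adjusted p = 0.0075) in sgUFM1 against set 2 and 1.28 (SE 0.29, adjusted p = 0.0053 in edgeR) in set 2 against the controls for sgUFL1, the same directions as MRPL12. Exons of 41 members are shared with another gene, on the same strand in 16 and on the opposite strand in 29, and the labels do not state whether counting used strand. MRPS18A, MRPS18C, MRPL43 and MRPL51 share 47%, 40.2%, 36.9% and 31.3% of their exon bases with genes on the opposite strand. Of other members described above, MRPS2, MRPS12, MRPS7, MRPL4 and MRPL34 share 14.4%, 16.3%, 10.8%, 21.4% and 13.2% in the same way. MRPL46 shares 11.3% with a gene on its own strand. The values of these members are uncertain too, and a share of bases does not give the share of reads affected. Of the 37 members without such overlap, 20 were lower and 0 higher in sgUFM1 against set 2, with a median of -0.21. Pseudogenes of members, taken by name only, had 0.0945% to 0.142% as many counts as the members themselves.

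Other genes of mitochondrial gene expression were set beside the members in sgUFM1 against set 2. Of 5 mitoribosomal proteins with other names, 3 were lower and 0 higher: AURKAIP1 (-0.48, SE 0.08), GADD45GIP1 (-0.42, SE 0.07) and CHCHD1 (-0.34, SE 0.09), while DAP3 and PTCD3 were not called. Of 30 assembly factors 13 were lower and 1 higher (median -0.14), with NOA1, a GTPase of small-subunit assembly, at -0.58 (SE 0.09). Of 16 translation factors 4 were lower and 2 higher (median -0.00). These included PDF, which removes the formyl group from new mitochondrial proteins, at -0.68 (SE 0.13), and the elongation factor TUFM at -0.27 (SE 0.06). Of 22 mitochondrial tRNA synthetases 5 were lower and 2 higher (median -0.16), with YARS2 at -0.54 (SE 0.08). Of 10 genes of mitochondrial DNA transcription and replication 4 were lower and 2 higher, with the RNA polymerase POLRMT at -0.61 (SE 0.07, adjusted p = 2.5e-06 in edgeR). Of the 13 proteins that these ribosomes make, 6 transcripts were lower and 0 higher (median -0.20), MT-ND3 by -0.47 (SE 0.06). Of 9 regulators of mitochondrial biogenesis 3 were lower and 1 higher: MYC had -1.13 (SE 0.08), ESRRA -0.40 (SE 0.08), and GABPA, an ETS factor, 0.55 (SE 0.11). Set against the 18.5% of all genes lower in this comparison, the shares lower were near it for the synthetases (22.7%) and translation factors (25%), 33.3% for the regulators, 40% for transcription and replication, 43.3% for assembly factors, 46.2% for mitochondrial transcripts and 60% for the 5 other mitoribosomal proteins.

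In sgUFM1 against set 1, NOA1 (-0.39, SE 0.09), AURKAIP1 (-0.39, SE 0.10), GADD45GIP1 (-0.41, SE 0.10) and POLRMT (-0.50, SE 0.07) were lower, and 0 of 16 translation factors were called. In sgUFM1 against the controls for sgUFL1, PTCD3, a small-subunit protein, was lower (-0.46, SE 0.11), and PDF was higher (0.74, SE 0.18). The synthetase NARS2 (-0.81, SE 0.15) and MYC (-0.38, SE 0.11) were lower there too, and ESRRA was higher (0.49, SE 0.12). PDF and ESRRA thus lay opposite to their direction against set 2. NARS2 and MYC were also lower against set 1 (-0.50, SE 0.13, and -0.49, SE 0.09), and NARS2 against set 2 (-0.53, SE 0.11). These comparisons share the sgUFM1 libraries. Cytosolic ribosomal proteins, the most alike group outside mitochondria, had 53 of 79 lower and 0 higher in sgUFM1 against set 2, and 7 of 79 lower in sgUFM1 against set 1 (18.5% and 5.15% of all genes). Nuclear-encoded subunits of oxidative phosphorylation had 47 and 13 of 72 lower in the same comparisons. For the mitochondrial ribosomal proteins these counts were 40 and 11 of 78, and the difference between the groups was not tested.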

How the data were processed

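Total RNA was extracted with TRIzol and sequenced in 12 libraries, per the labels. The authors deposited 1 table of whole-number read counts per gene and 1 table of FPKM values. GRCh38, featureCounts 2.0.0, STAR 2.7.7a and fastp 0.20.1 are named per the submitters' processing notes. Their roles and settings, with strand, were not given in the sources used here. Each deposited FPKM column, multiplied by gene length, was matched to the count columns over 11031 genes, which showed the exchange of names in 6 columns. Members were found by name, and GC content, exons and overlaps come from GENCODE release 29, which holds all 58735 identifiers.

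Counts went through filterByExpr, TMM scaling and the quasi-likelihood test of edgeR 4.0.16 in R 4.3.3, fitted to 6 libraries for a pair of sets or to all 12 for tests across sets, and Benjamini-Hochberg adjustment over all genes tested. The standard error was derived from the same model. Chi-square values per gene between replicates (2.41 to 34.9) exceeded sampling noise and were unequal between sets. They ran from 3.73 to 6.62 in sgUFM1, from 2.56 to 9.46 in set 2 and from 16.8 to 34.9 in the controls for sgUFL1. In set 1, replicate 1 had 20.5 and 20.1 against replicates 2 and 3, which had 2.41 between them. The part of this scatter in the numbers of calls was not tested. Alternatives were RLE scaling, no filter, DESeq2 1.42.0, lowess offsets (span 0.3) for GC content and length, 1 model over 12 libraries, a replicate block, limma 3.58.1 on log2(FPKM + 0.5), and with pseudocounts of 0.1 and 1, where 3 libraries reached 0.5 FPKM, and each library left out. The procedure was run on simulated counts, drawn independently with the spread that edgeR fitted. Such counts cannot show how it behaves where libraries of a set are discordant or paired, and no outcome is given here.

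Named members are MRPL12, up to 6 per direction and comparison and 8 across the sets by smallest p, the 4 highest and 4 lowest levels, MRPS36, MRPS30 and the MRPS18 genes, plus up to 3 genes of each other list. Other members named for overlap between comparisons, order of libraries, loss of a call or role were chosen after their values were seen. The members and lists were chosen with earlier results of these data known.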

Additional observations from a re-analysis of the deposited data

Results flagged for a closer look

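The effects of the 2 guides, each relative to its own controls, differed in a test of that difference over 12 libraries (edgeR, Benjamini-Hochberg adjusted p under 0.05) for 30 of the 78 members, 26 below 0 and 4 above. Of all 15821 genes tested, 17.9% were below 0 and 17% above. The value is the sgUFM1 effect minus the sgUFL1 effect in log2 units and is the same under the names of both tables. It was -3.30 for MRPL12, -1.44 for MRPS34, -1.34 for MRPL41, -1.30 for MRPL34, -1.24 for MRPL4, -1.23 for MRPS26, -1.16 for MRPS2 and -1.13 for MRPS12. It was -0.97 for MRPL52, -0.96 for MRPL14, -0.81 for MRPL36 and -0.67 for MRPS7. MRPL57 had -0.89, MRPL51 -0.86, MRPL54 -0.73, MRPL55 -0.68, MRPL43 -0.59, MRPS18B -0.49, MRPL37 -0.47 and MRPS16 -0.40, and the remaining 6 below 0 were MRPL16, MRPL2, MRPL24, MRPL27, MRPL28 and MRPS21. Values above 0 were 0.57 for MRPL42, 0.55 for MRPL19, 0.46 for MRPL1 and 0.40 for MRPL50. With offsets for GC content and length, MRPL12 (-2.24), MRPL57 (-0.86), MRPL52 (-0.77), MRPL51 (-0.73), MRPL34 (-0.63), MRPS7 (-0.53), MRPL14 (-0.45), MRPS12 (-0.44), MRPS16 (-0.41), MRPL4 (-0.40) and MRPS2 (-0.38) kept their call. So did MRPL27 (-0.45) and MRPL16 (-0.37). MRPL41, MRPL54 and MRPL55 turned to 0.29, 0.26 and 0.12 without a call, and of the 4 above 0, MRPL1, MRPL42 and MRPL50 turned to -0.05, -0.21 and -0.26, also without a call. MRPL19 (0.16), MRPS26 (-0.22), MRPL36 (-0.38), MRPS34 (-0.43), MRPL43 (-0.02), MRPS18B (-0.24) and MRPL37 (-0.16) kept their direction and lost the call. The same held for MRPL2 (-0.31), MRPL24 (-0.21), MRPL28 (-0.34) and MRPS21 (-0.41). The sgUFM1 libraries and the controls for sgUFL1, which enter with the same sign, had a mean GC content of counted transcripts of 49.81% to 50.29% and 48.33% to 49.38%, against 50.41% to 50.94% in set 2 and 50.29% to 50.53% in set 1, and the part of that in the values was not tested.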

How the results depend on the processing

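Over 1128 alternative values for the single members that the naming rule picks in each comparison, 888 kept direction and call, 223 kept direction and lost the call, 5 gained it and 12 turned. The values that turned came with offsets for GC content and length, without and with a replicate block: in set 2 against the controls for sgUFL1, -0.21 and -0.17 for MRPL41 and 0.02 and 0.01 for MRPL42, and in the difference between the 2 guide effects -0.05 and -0.05 for MRPL1, 0.29 and 0.27 for MRPL41, -0.21 and -0.21 for MRPL42, and -0.26 and -0.26 for MRPL50. Among other called members, offsets turned MRPL54 (-0.15) and MRPS2 (-0.04) in set 2 against the controls for sgUFL1, and MRPL54 (0.26) and MRPL55 (0.12) in the difference between the guide effects. The cause was not tested.

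Counts of called members moved by over 1.5 times as follows. Shares of all genes called are given above only for the fits with offsets. Whether the other counts moved more than those over all genes was not tested. In sgUFM1 against the controls for sgUFL1, lower members were 7 without a filter, 8 by DESeq2, 11 in 1 model over 12 libraries and 0 by limma at each pseudocount, and higher members 1 by DESeq2 and 0 by limma. In sgUFM1 against set 2, higher members were 2 with offsets and 0 with RLE scaling, no filter, DESeq2, the model over 12 libraries, the replicate block and limma, and 2 with block and offsets, and lower members were 19 in the model over 12 libraries. In sgUFM1 against set 1, lower members were 17 without a filter, 3 in the model over 12 libraries, 7 with the replicate block, 6 with block and offsets and 5, 4 and 5 by limma at pseudocounts of 0.5, 0.1 and 1, and higher members 1 with offsets, 1 by limma and 0 with the block, without and with offsets. In set 1 against the controls for sgUFL1, higher members were 15 without a filter, 15 by DESeq2, 17 in the model over 12 libraries and 0 with RLE scaling, offsets, the replicate block, both together and limma, and lower members 1 without a filter, 2 by DESeq2 and 3 in the model over 12 libraries. In set 2 against the controls for sgUFL1, offsets gave 11 higher and 1 lower, and block with offsets 0 lower. In set 2 against set 1, higher members were 6 without a filter, 6 by DESeq2, 1 with offsets, 1 in the model over 12 libraries, 6 with the replicate block, 5 with block and offsets and 0 by limma. For the difference between the 2 guide effects, members above 0 were 2 without a filter, 1 with offsets and 1 with block and offsets, and the median moved to -0.23 with offsets, without and with the block, and to -0.25 without replicate 3 of the controls for sgUFL1.

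With each library left out in turn, lower and higher members ranged from 0 to 8 and 0 to 8 in sgUFM1 against the controls for sgUFL1, 22 to 48 and 0 to 2 against set 2, and 1 to 37 and 0 to 3 against set 1. They ranged from 0 to 2 and 0 to 16 in set 1 and 4 to 8 and 14 to 31 in set 2 against those controls, and from 0 to 1 and 0 to 8 in set 2 against set 1. For the difference between the guide effects they ranged from 19 to 37 and 2 to 7, and for any difference from 27 to 43. Shares of all genes called in these fits are not given, and whether members moved more than other genes was not tested. The labels give same-numbered libraries only a shared number, and whether they were handled together is not stated. Correlations of their deviations ran from -0.212 to 0.378, and no pair of sets had all 3 above 0.1. They ran from 0.0315 to 0.169 between set 2 and set 1, and from -0.212 to 0.378 between set 1 and the controls for sgUFL1. With 3 libraries a set and MRPS24 and MRPL38 under 1 FPKM, small changes of low members were not detectable.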
